A study of Mus musculus with 6 samples.

Results

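Expression of 38 genes of glycolysis and of the hypoxia response was compared between colon tumors that lacked both Apc and Tgfbr2 and colon tumors that lacked Apc. The genes were listed by function: 26 act in glucose uptake, glycolysis and the handling of pyruvate and lactate, and 12 act in oxygen sensing or are known targets of it. Of the 38 genes, 35 had a probe set of their own on the array, out of 19938 genes with one in the whole table, and all 35 were tested. Gpi1 and Eno1 were not analysed here, and Gapdh was read only on 25 probe sets that also carry other gene symbols.

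The tumors came from mice aged 3 weeks. The authors give the strain C57BL/6J for the Tgfbr2flox/flox line, which was crossed with the Apcflox/flox and Cre lines. Of the 6, the 3 double knockout tumors had the genotype CDX2P-G19Cre;Apcflox/flox;Tgfbr2flox/flox. The genotype of the 3 Apc knockout tumors was CDX2P-G19Cre;Apcflox/flox, so both groups carried the Cre transgene and the Apc deletion, and Tgfbr2, the type II receptor of transforming growth factor β, was the added deletion. The Cre is driven by a CDX2 promoter and is switched on by chance in part of the colon epithelium. Cancer tissue was cut from frozen sections by laser capture microdissection and its RNA was read on Affymetrix Mouse Gene 1.0 ST arrays, which gave log2 signals summarised by RMA. Neither a wild-type nor a normal colon array was analysed here. The labels do not state that each tumor came from a separate mouse, so the tests measure the spread between these 3 and 3 tumors.

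Glycolysis splits glucose to pyruvate and yields ATP without oxygen. Many tumors keep it running fast and export the product as lactate, which lactate dehydrogenase makes from pyruvate. When oxygen is low, prolyl hydroxylases stop marking the hypoxia-inducible factor subunits Hif1a and Epas1 for destruction, and the stabilised factors bind a short core sequence near their target genes. Most glycolytic enzymes, the glucose transporter Slc2a1 and the pyruvate dehydrogenase kinase Pdk1 are such targets. The colon lining works at low oxygen even in health.

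The arrays had median signals between 7.68 and 7.80. Values of a gene are given in the order of tumors 1, 2 and 3 of each group, the double knockout group first. Tgfbr2 measured 10.98, 10.35 and 10.47 against 11.35, 11.37 and 11.09, a difference of −0.67 (SE 0.19), so that its signal was lower in every double knockout tumor but was not lost. The deletion takes out exon 2 only, and the authors detected no intact Tgfbr2 by immunofluorescence in double knockout tumors. Which exons the probe set reads was not examined, so the remaining signal does not measure how complete the deletion was. Apc differed by −0.25 (SE 0.18), or −0.05 without double knockout tumor 2, with overlapping groups. Double knockout tumor 2 stood apart: its correlation with the other arrays over all probe sets was 0.956 to 0.968, while pairs of the others reached 0.988. Its mean signal over smooth muscle markers was 10.03, against 8.003 to 8.65 in the other 5 tumors, and over differentiated colonocyte markers 11.96, against 9.33 to 10.15. Over Wnt target and crypt stem cell markers its mean was 9.17, against 10.99 to 11.25. Colon epithelium markers had mean signals between 11.79 and 12.26 in the 6 tumors. Single markers of that list went both ways in double knockout tumor 2, which was the highest in 8 of the 11. It was the lowest in 2, Cdx2 at 8.24 and Krt18 at 12.55. The part of these tissue markers in the results was not tested, and a value without double knockout tumor 2 is given where leaving it out turned the sign of a difference or moved it by over 1.5 times. In dissected tissue, fewer cells of a type and less RNA per cell cannot be told apart.

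The core sequence that hypoxia-inducible factors bind, ACGTG or GCGTG, was searched on both strands of the 250 bases before and the 50 bases after each gene's start in RefSeq (build GRCm38.p6). A CACGTG, which is also the core of an E-box, was counted on both strands. Windows were held for 32 of the 35 genes, and 30 of the 32 (93.8%) had a match. Over the genes of the fit with a window, 61% of 13192 had one, and over all genes held in RefSeq's promoter file 46.7% of 27025. A gene with several windows was counted if any of them had a match. By window, 36 of 44 (81.8%) of the listed genes' windows had a match, against 43.8% of all 32851. The windows of the listed genes were rich in CG pairs, with a median of 24 per gene against 19 over the genes of the fit, and both core sequences contain such a pair. A match is a run of letters, not a measured binding site. No window was held for Slc2a3, Epas1 and Ndrg1. Stretches are printed for Slc16a1, Pfkl, Ddit4 and Adm, whose groups did not overlap, for Pdk4, whose difference was the largest in size among the 35, and for Ldha, which has 5 matches before its start. Each runs 5′ to 3′ along the gene, with the match in capitals and 30 bases on each side. They lie at chr3:104638434-104638499 (plus strand, Slc16a1), chr10:78009872-78009936 (minus strand, Pfkl), chr10:59951923-59951987 (minus strand, Ddit4), chr7:110627537-110627601 (plus strand, Adm), chr6:5496315-5496379 (minus strand, Pdk4) and chr7:46845629-46845694 (plus strand, Ldha).
Slc16a1: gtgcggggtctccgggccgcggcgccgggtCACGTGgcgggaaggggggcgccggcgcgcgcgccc
Pfkl: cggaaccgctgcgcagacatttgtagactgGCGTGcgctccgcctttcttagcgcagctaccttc
Ddit4: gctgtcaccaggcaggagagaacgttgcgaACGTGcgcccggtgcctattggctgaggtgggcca
Adm: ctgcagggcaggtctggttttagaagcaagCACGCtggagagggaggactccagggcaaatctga
Pdk4: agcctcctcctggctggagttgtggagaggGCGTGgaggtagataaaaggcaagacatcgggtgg
Ldha: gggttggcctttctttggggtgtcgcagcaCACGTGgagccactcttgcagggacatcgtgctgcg
The matches of Pfkl and Pdk4 are of the GCGTG form, that of Adm is the same form read on the other strand, and those of Slc16a1 and Ldha are the palindrome CACGTG. The printed match of Ddit4 is of the ACGTG form. Before its start, Slc16a1 had 2 further matches, both of the GCGTG form. Ddit4 and Adm each had 2 matches before the start, of which 1 is printed. Of the 5 of Ldha, the printed stretch shows 2. No match lay in the windows of Tpi1 and Eno2.

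None of the 35 genes had an adjusted p under 0.05 by limma with Benjamini-Hochberg adjustment over all 19506 probe sets tested, and the background was the same, 0% of the probe sets. The smallest adjusted p was 0.821 among the 35 genes and 0.606 over all probe sets. Before adjustment, 5 of the 35 genes had a limma p under 0.05, against 5.60% of all probe sets. Of these, 2 were higher in double knockout tumors, Slc16a1 and Pfkl, against 1.78% of all probe sets, and 3 were lower, Slc2a3, Ddit4 and Adm, against 3.82%. The same 5 genes were those whose 2 groups did not overlap. Non-overlap occurred upward in 5.25% of all probe sets and downward in 6.94%. The methods' t-test gave 0 genes after adjustment and 3 of the 35 before it, Slc2a3, Pfkl and Ddit4, so that Slc16a1 and Adm were not among them. The count of 5 became 3 when Apc knockout tumor 1 was left out, and also 3 when double knockout tumor 1 was. For the methods' test and these fits, the share of all probe sets before adjustment is not given. The lower counts therefore cannot be called particular to these genes. With 3 tumors against 3, an exact permutation test of a single gene could not go below 0.1.

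The median difference over the 35 genes was 0.07 on the log2 scale (double knockout minus Apc knockout), against 0.01 over all probe sets. Of the 35, 22 were higher and 13 lower in the mean, and 52.3% of all probe sets tested were higher. Leaving out 1 double knockout tumor gave a median of 0.00 (tumor 2), −0.01 (tumor 3) or 0.16 (tumor 1). The 23 glycolytic genes had a median of 0.08, with 15 higher and 8 lower, and the 12 hypoxia genes a median of 0.04, with 7 higher and 5 lower. Without double knockout tumor 2 these medians were 0.01 and −0.10.

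**Figure D1:**
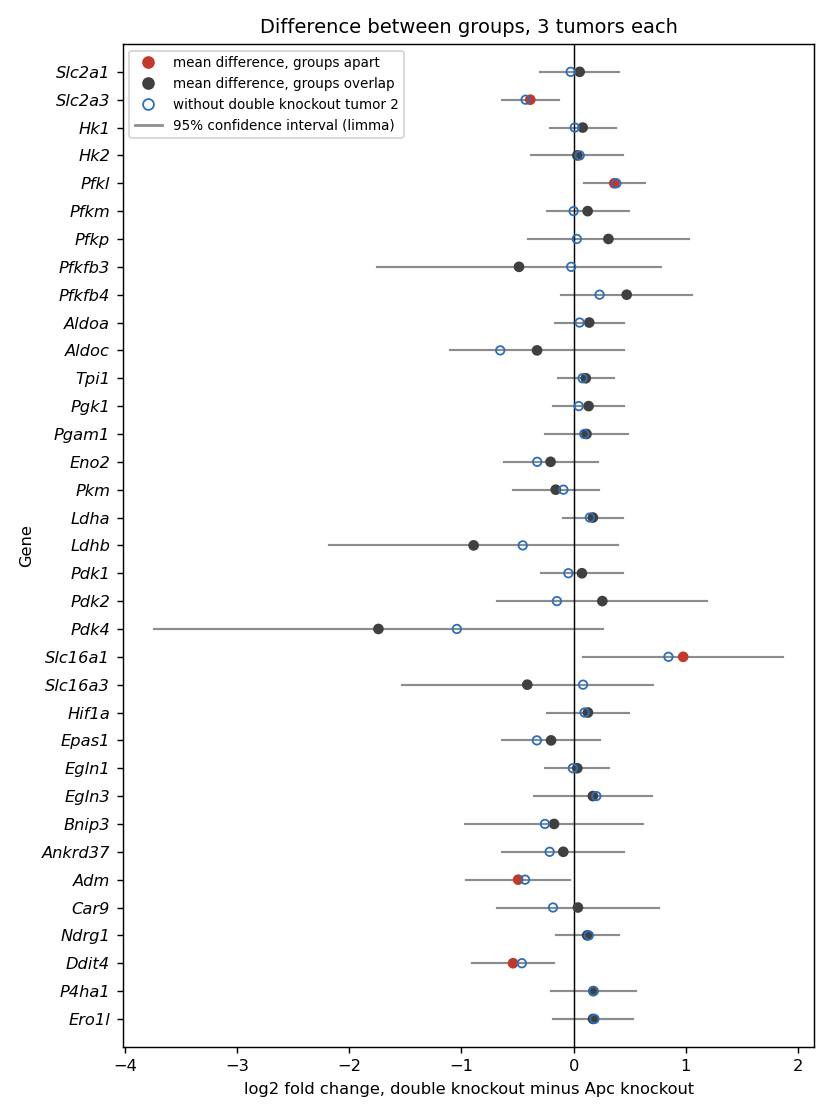
Log2 difference, double knockout minus Apc knockout, of each of the 35 genes (horizontal axis) with its 95% confidence interval from limma, ordered by role, in red where the groups were apart, and with open circles for the difference without double knockout tumor 2. Intervals of Slc16a1, Pfkl, Slc2a3, Ddit4 and Adm exclude 0 before adjustment, and Pdk4 has the widest, from −3.74 to 0.26.

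Glucose enters cells through facilitative transporters. The signal of Slc2a3, a high-affinity transporter, was 6.90, 7.01 and 6.87 in the double knockout group against 7.20, 7.32 and 7.41 in the Apc knockout group. The groups did not overlap, and their means were 6.93 ± 0.07 and 7.31 ± 0.11 (SD, n = 3 each). The difference was −0.39 (SE 0.10, 95% confidence interval −0.64 to −0.13, adjusted p = 0.821 from limma) and stayed between −0.44 and −0.34 when any 1 tumor was left out. Neutrophils are among the cells that use Slc2a3, and all 12 of the neutrophil markers tested were lower in the double knockout mean. Their median difference was −0.92, or −1.48 without double knockout tumor 2. Their mean signals were 7.40, 8.56 and 7.999 in the double knockout group against 9.47, 9.41 and 8.49 in the Apc knockout group. Within the Apc knockout group, tumor 3 had the lowest neutrophil mean and the highest Slc2a3. Within the double knockout group, tumor 2 had the highest of both, and tumor 1 had a lower neutrophil mean than tumor 3 and a slightly higher Slc2a3. The part of these cells in the Slc2a3 difference was not tested, and the arrays give no call by which a marker could be named absent. Slc2a1, the main transporter of epithelial and tumor cells, measured 11.77, 12.21 and 12.17 against 11.94, 12.04 and 12.02. Its difference was 0.05 (SE 0.14) and turned to −0.03 without double knockout tumor 2.

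Hexokinases trap glucose as glucose 6-phosphate. Hk2, the isoform often induced in tumors, differed by 0.03 (SE 0.17), or 0.05 without double knockout tumor 2. The Hk1 probe set with the highest mean, which lists no RefSeq transcript, measured 13.33, 13.62 and 13.48 against 13.42, 13.28 and 13.50. The Hk1 probe set with RefSeq transcripts measured 10.10, 11.09 and 10.03 against 10.06, 9.91 and 10.01, so that double knockout tumor 2 was the one high value. The differences of the 2 sets were 0.08 (SE 0.12) and 0.41 (SE 0.29), and without double knockout tumor 2 they were 0.01 and 0.07. All 16 of the probe sets that carry the symbol Hk1 together with others also carry Rpl17, a ribosomal protein gene.

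Phosphofructokinase sets the pace of glycolysis by committing fructose 6-phosphate to it. Its liver-type subunit Pfkl measured 11.10, 11.11 and 11.23 in the double knockout group against 10.68, 10.93 and 10.74 in the Apc knockout group. The lowest double knockout value lay above the highest Apc knockout value. The means were 11.15 ± 0.08 and 10.78 ± 0.13 (SD, n = 3 each), a difference of 0.36 (SE 0.11, 95% confidence interval 0.09 to 0.63, 1.29-fold, adjusted p = 0.821 from limma), and it ranged from 0.31 to 0.44 with any 1 tumor left out. The platelet-type subunit Pfkp differed by 0.31 (SE 0.30) but by 0.03 without double knockout tumor 2, in which it was highest at 11.18. The muscle-type subunit Pfkm differed by 0.13 (SE 0.15) and by 0.0004 without that tumor.

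Pfkfb3 and Pfkfb4 make fructose 2,6-bisphosphate, the activator of phosphofructokinase. Pfkfb3 measured 9.22, 8.44 and 10.45 in the double knockout group against 9.35, 10.07 and 10.15 in the Apc knockout group. Double knockout tumors 2 and 3 held the lowest and the highest value of the 6. The difference was −0.49 (SE 0.52) and −0.02 without double knockout tumor 2. Pfkfb4 went the other way in the mean, at 8.40, 9.12 and 8.39 against 8.05, 8.44 and 8.0, with a difference of 0.47 (SE 0.24) that was 0.23 without double knockout tumor 2. Of the 5 genes of the phosphofructokinase step, 4 were higher in double knockout tumors, with a median of 0.31 that was 0.03 without double knockout tumor 2.

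In the steps from aldolase to pyruvate kinase, 4 of the 6 genes from aldolase to enolase were higher in double knockout tumors, with a median of 0.11 that was 0.05 without double knockout tumor 2. The ubiquitous Aldoa differed by 0.14 (SE 0.13), Tpi1 by 0.11 (SE 0.10), Pgk1 by 0.13 (SE 0.13) and Pgam1 by 0.12 (SE 0.15). Without double knockout tumor 2, Aldoa differed by 0.05 and Pgk1 by 0.05. Pgk1 and Pgam1 are phosphoglycerate kinase, the first ATP-yielding enzyme of the pathway, and phosphoglycerate mutase. Their 95% confidence intervals, like those of Aldoa and Tpi1, included 0 and ended below 0.49. Aldoc, the aldolase of brain, measured 9.58, 10.50 and 9.44 against 10.44, 9.79 and 10.27, a difference of −0.33 (SE 0.32) that was −0.65 without double knockout tumor 2. Eno2, the neuronal enolase, differed by −0.21 (SE 0.17), or −0.32 without that tumor. Pkm, pyruvate kinase of muscle and tumors, differed by −0.16 (SE 0.16), or −0.09 without that tumor. Its second probe set differed by −0.07, which turned to 0.0085 without that tumor.

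At the end of the pathway, Ldha, which converts pyruvate to lactate, measured 13.24, 13.44 and 13.48 against 13.17, 13.30 and 13.17. Its difference was 0.17 (SE 0.11), and double knockout tumor 1 was the only one of its group below the highest Apc knockout value. Ldhb, the subunit that favours the use of lactate, measured 8.86, 7.60 and 8.96 against 9.59, 8.45 and 10.05. Its difference was −0.89 (SE 0.53). Leaving out double knockout tumor 2 gave −0.45. Without Apc knockout tumor 2, the low value of that group, it was −1.35. A second Ldhb probe set gave −0.79, or −0.355 without double knockout tumor 2.

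Pyruvate dehydrogenase kinases shut off the entry of pyruvate into mitochondria. Pdk4, the isoform induced by fasting and fatty acids, had the largest difference of the 35 genes. It measured 8.77, 7.14 and 9.71 in the double knockout group against 10.69, 8.94 and 11.21 in the Apc knockout group, with means of 8.54 ± 1.30 and 10.28 ± 1.19 (SD, n = 3 each). Double knockout tumor 3 lay above Apc knockout tumor 2, so the groups overlapped. The difference was −1.74 (SE 0.82, 95% confidence interval −3.74 to 0.26, 3.34-fold, adjusted p = 0.821 from limma). It shrank to −1.04 without double knockout tumor 2, the lowest of its group, and reached −2.41 without the lowest of the other group, Apc knockout tumor 2. Pdk1, the classic hypoxia target of the family, differed by 0.07 (SE 0.15), or −0.05 without double knockout tumor 2. Pdk2 differed by 0.26 (SE 0.39), with 10.44 in double knockout tumor 2, and by −0.15 without that tumor.

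Lactate crosses the membrane through monocarboxylate transporters. Slc16a1 (MCT1), which carries lactate and, in the colon, butyrate, measured 11.07, 11.39 and 10.92 in the double knockout group against 10.16, 10.87 and 9.42 in the Apc knockout group. The groups did not overlap, and the Apc knockout tumors were the more spread, with means of 11.13 ± 0.24 and 10.15 ± 0.73 (SD, n = 3 each). The difference of 0.98 (SE 0.37, 95% confidence interval 0.09 to 1.87, 1.97-fold, adjusted p = 0.821 from limma) was the largest upward one of the 35. It was 0.61 without Apc knockout tumor 3, the lowest of the 6, and 1.34 without Apc knockout tumor 2, and without double knockout tumor 2 it was 0.85. Slc16a3 (MCT4), the exporter of strongly glycolytic cells, measured 11.00, 9.87 and 11.73 against 11.03, 11.55 and 11.27. Its difference was −0.41 (SE 0.46) and turned to 0.08 without double knockout tumor 2.

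**Figure D2:**
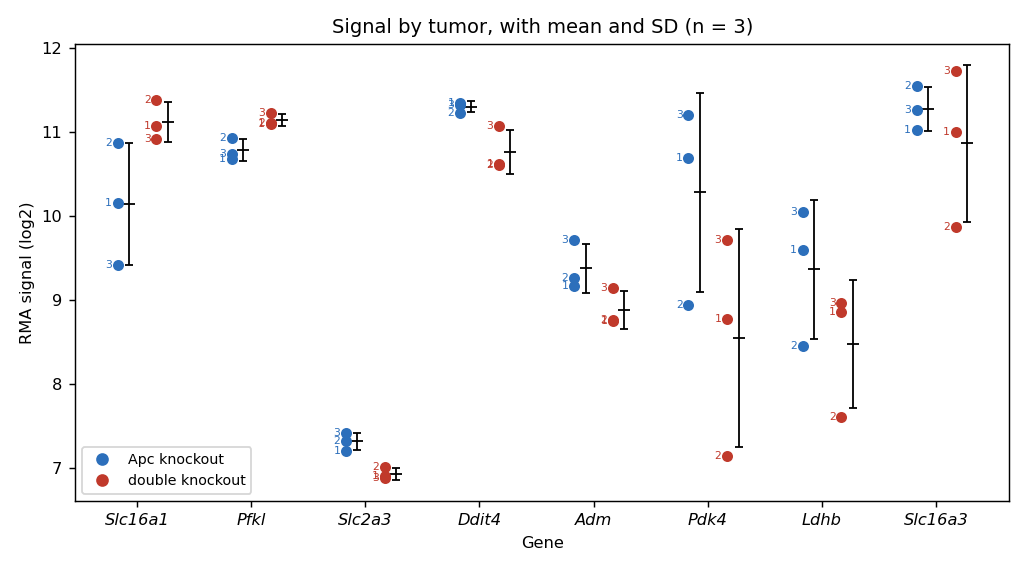
Log2 signal of selected genes (vertical axis) of 8 genes, with 1 numbered point per tumor, Apc knockout in blue and double knockout in red, and the mean ± SD of each group in black. Slc16a1 and Pfkl lie above, and Slc2a3, Ddit4 and Adm below, every Apc knockout tumor in all 3 double knockout tumors, while Pdk4, Ldhb and Slc16a3 overlap.

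None of the genes of oxygen sensing had a 95% confidence interval that excluded 0. Hif1a measured 11.80, 12.07 and 12.15 against 11.77, 12.11 and 11.76, a difference of 0.13 (SE 0.15). Epas1, which encodes the second α subunit, measured 10.52, 10.72 and 10.16 against 10.87, 10.50 and 10.62, a difference of −0.20 (SE 0.18), or −0.33 without double knockout tumor 2. Egln1, the main prolyl hydroxylase, differed by 0.03 (SE 0.12), or −0.01 without that tumor, and Egln3, a hydroxylase that is itself induced by hypoxia, by 0.17 (SE 0.22). The subunits are controlled mainly as proteins, which an array does not read.

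Differences of the targets of the factors lay on both sides of 0. Ddit4 (REDD1), an inhibitor of mTORC1 that is induced by hypoxia and by glucocorticoids, measured 10.62, 10.61 and 11.07 in the double knockout group against 11.35, 11.23 and 11.33 in the Apc knockout group. The groups did not overlap, with means of 10.77 ± 0.26 and 11.31 ± 0.07 (SD, n = 3 each). The difference was −0.54 (SE 0.15, 95% confidence interval −0.91 to −0.17, adjusted p = 0.821 from limma) and ranged from −0.69 to −0.46 with any 1 tumor left out. It had an adjusted p of 0.0491 from limma when the filter on level was replaced by one on reproducibility, a coefficient of variation under 20% in each group. That filter kept 20 of the 35 genes and gave an adjusted p under 0.05 in 107 of 15417 probe sets (0.694%). Such a filter uses the same within-group spread as the test.

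Adm, which encodes the vasodilator peptide adrenomedullin, measured 8.75, 8.76 and 9.14 against 9.16, 9.26 and 9.71. The groups were apart by a narrow margin, with double knockout tumor 3 just under the lowest value of the other group. The difference was −0.49 (SE 0.19, 95% confidence interval −0.96 to −0.03, adjusted p = 0.821 from limma) and −0.33 without Apc knockout tumor 3. Bnip3, a mediator of mitophagy, measured 9.91, 10.80 and 11.21 against 10.79, 10.67 and 10.99, a difference of −0.17 (SE 0.33) that turned to 0.19 without double knockout tumor 1. Car9, the membrane carbonic anhydrase often used as a mark of hypoxic tumor tissue, measured 8.96, 9.79 and 9.28 against 9.31, 9.75 and 8.84, a difference of 0.04 (SE 0.30) that turned to −0.18 without double knockout tumor 2. Ndrg1 differed by 0.12 (SE 0.12), Ankrd37 by −0.09 (SE 0.22, or −0.21 without that tumor), the collagen prolyl hydroxylase subunit P4ha1 by 0.18 (SE 0.16) and Ero1l, an oxidase of the endoplasmic reticulum that the RefSeq table names Ero1a, by 0.17 (SE 0.15). Each of these 4 intervals included 0.

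The tumors of one group differed from one another in these genes. Double knockout tumor 2 or 3 was the highest of the 6 in 24 of the 35 genes, and double knockout tumor 1 in 0. Double knockout tumor 2 was the highest in 13 genes and the lowest in 5, namely Pfkfb3, Ldhb, Pdk4, Slc16a3 and Ddit4. Double knockout tumor 1 was the lowest in 10. The share of all probe sets with each of these extremes was not computed, so the counts cannot be called particular to these genes. Among smooth muscle markers double knockout tumor 2 was the highest in 10 of 11, and among Wnt target and crypt stem cell markers the lowest in 10 of 12. In 8 of the 35 genes (22.9%), Slc2a1, Aldoa, Tpi1, Pgk1, Pgam1, Ldha, Pdk1 and Egln1, double knockout tumors 2 and 3 both lay above every Apc knockout tumor and tumor 1 did not. Over all probe sets this pattern occurred in 4.71%. It was noticed in the values and was not tested, and in some of these genes the margin was small, as in Tpi1, at 12.53 and 12.53 against a highest Apc knockout value of 12.44.

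**Figure D3:**
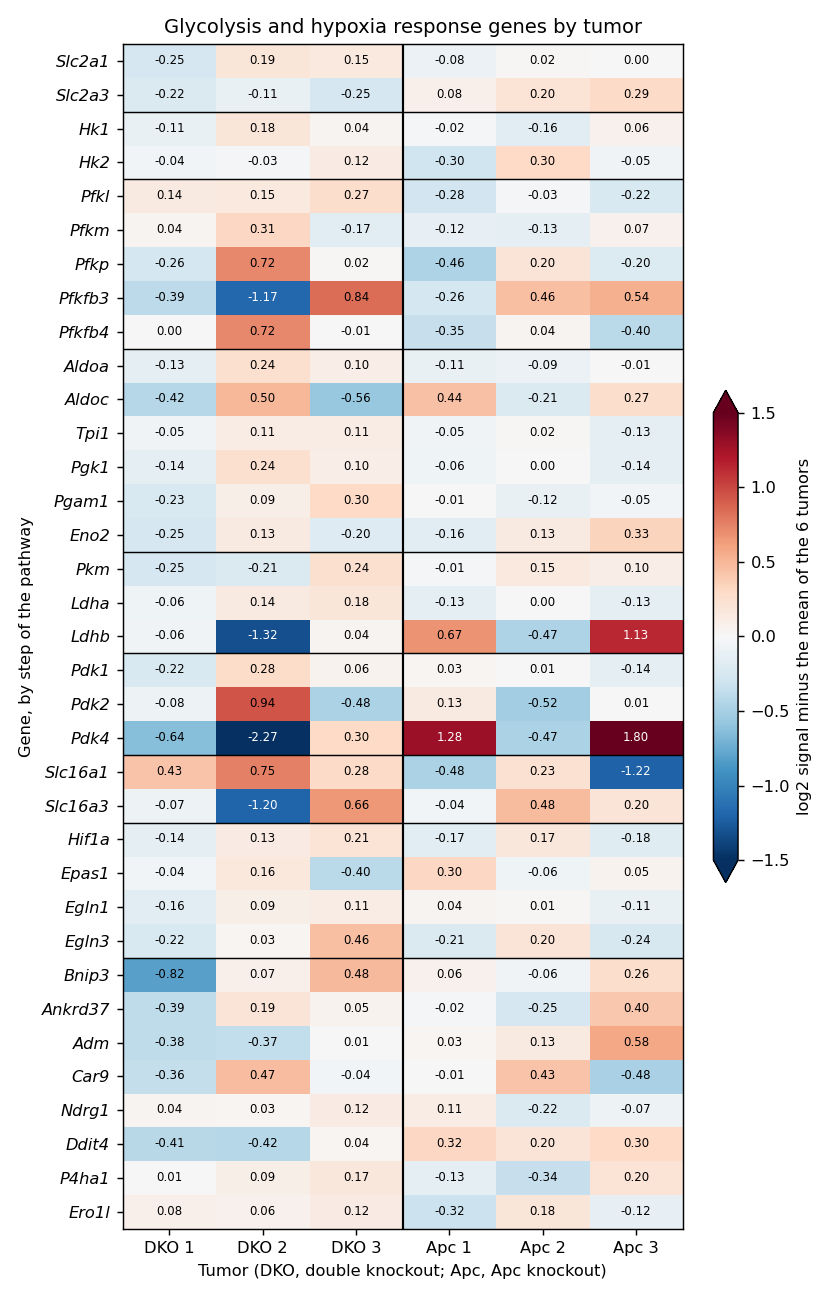
Signal of each of the 35 genes in each of the 6 tumors as a deviation in log2 units from the gene's mean over the 6 (colour), with genes ordered by role. Double knockout tumor 2 holds the lowest values of Pdk4, Ldhb, Pfkfb3 and Slc16a3 and the highest of Pdk2, Pfkp and Pfkfb4.

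Isoforms of one step were also set against each other within each array. For each pair, the signal of one gene minus that of the other was centred on its mean over the 6 tumors, so that the size of the pair's signals plays no part. Slc2a1 minus Slc2a3 was −0.04, 0.30 and 0.40 in the double knockout group against −0.17, −0.19 and −0.30 in the Apc knockout group. The groups did not overlap, and the change of Slc2a1 exceeded that of Slc2a3 by 0.44, or 0.40 without double knockout tumor 2. In the other pairs the groups overlapped. Pdk1 minus Pdk4 differed by 1.82, or 0.995 without double knockout tumor 2, Slc16a1 minus Slc16a3 by 1.39, or 0.76, and Ldha minus Ldhb by 1.06, or 0.60. Pfkfb4 minus Pfkfb3 differed by 0.96, or 0.25. These are descriptions of genes already given above and were not tested.

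**Figure D4:**
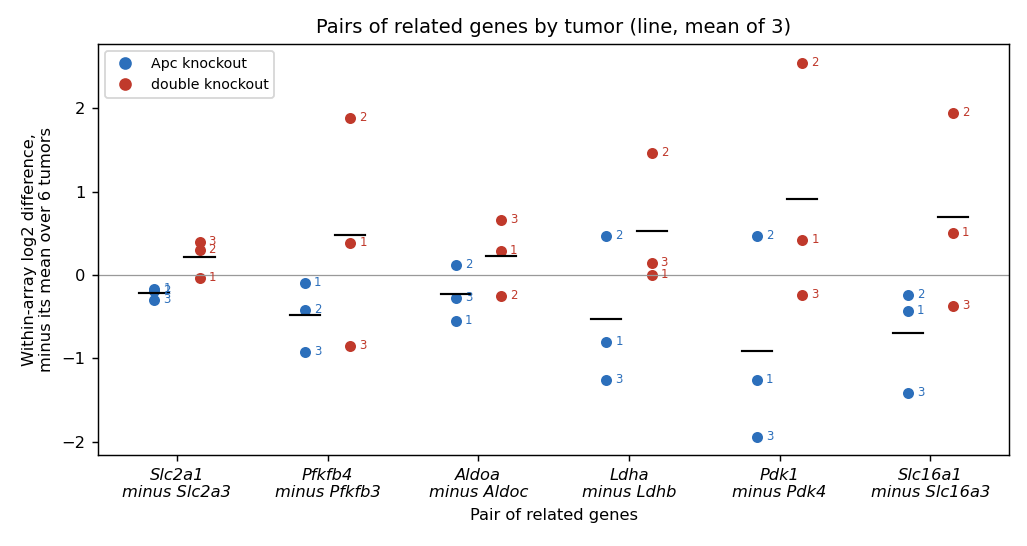
Difference in log2 signal between isoforms within each array, centred on the mean over the 6 tumors, with 1 numbered point per tumor (Apc knockout blue, double knockout red) and lines at the means of 3. The groups separate for Slc2a1 minus Slc2a3 and overlap for the other pairs shown.

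The surrounding pathway genes were read from 6 further lists, in each of which 0 genes had an adjusted p under 0.05 by limma. Before adjustment, 8 of the 113 genes tested in these lists (7.08%) had a limma p under 0.05, near the 5.60% of all probe sets: Igfbp3, Lox, Hilpda and Arnt2, which were lower, and Rpia, Pgd, Fbp2 and Dlat, which were higher. They are described because they had the smallest p of their lists. Of 47 other hypoxia targets, 34 were lower and 13 higher in double knockout tumors, with a median of −0.15 over the list. Over all probe sets tested, 52.3% were higher, and the split of the list was not tested. Igfbp3, an insulin-like growth factor binding protein, measured 10.79, 11.12 and 10.85 against 11.41, 11.50 and 11.24, a difference of −0.46 (SE 0.13). Lox, the enzyme that crosslinks collagen, measured 9.65, 9.77 and 7.65 against 10.60, 10.08 and 11.33, a difference of −1.64 (SE 0.63) in which double knockout tumor 3 was the low value. Fibroblast markers had mean signals of 9.999, 10.02 and 9.23 against 9.81, 9.40 and 9.92, also lowest in double knockout tumor 3. Double knockout tumors 1 and 2 had the highest fibroblast means of all the tumors, but Lox signals below every Apc knockout tumor. The part of these cells in the Lox difference was not tested. Hilpda, a lipid droplet protein, differed by −0.49 (SE 0.20) with overlapping groups.

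Of 16 regulators of hypoxia-inducible factors, 5 were higher and 11 lower, with a median of −0.03, or −0.06 without double knockout tumor 2. Arnt2, a partner of the α subunits, measured 8.48, 7.17 and 8.29 against 9.22, 8.99 and 9.07. All 3 double knockout tumors lay below the Apc knockout tumors, and the difference was −1.11 (SE 0.34), or −0.71 without double knockout tumor 2. The cullin Cul2, part of the ligase that marks the subunits for destruction, differed by 0.26 (SE 0.13) and the ubiquitin ligase Siah1a by −0.29 (SE 0.15).

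The 9 genes of the pentose phosphate pathway, the branch that makes NADPH and ribose, had a median of 0.06, or 0.04 without double knockout tumor 2, with 6 higher and 3 lower. Rpia, which makes ribose 5-phosphate, measured 9.61, 9.79 and 9.82 against 9.03, 9.34 and 9.22, a difference of 0.54 (SE 0.12). Pgd, which yields NADPH, measured 12.24, 12.30 and 12.39 against 11.88, 12.17 and 11.66, a difference of 0.41 (SE 0.15). Neither pair of groups overlapped, and both had an adjusted p of 0.821 from limma. H6pd differed by −0.25 (SE 0.13).

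Of 10 gluconeogenesis genes, 9 were higher, with a median of 0.33, but double knockout tumor 2 was the highest in 9 of the 10 and the median without it was 0.03. Fbp2, a fructose 1,6-bisphosphatase, measured 10.55, 11.00 and 10.31 against 9.97, 10.13 and 9.49, a difference of 0.76 (SE 0.24), or 0.57 without double knockout tumor 2. G6pc3 differed by 0.20 and Mdh1 by 0.35, which was 0.14 without that tumor. Of 10 genes of pyruvate entry into mitochondria, 8 were higher, with a median of 0.20 that was 0.02 without double knockout tumor 2. Among them the pyruvate dehydrogenase subunit Dlat differed by 0.33 (SE 0.13), Pdk3 by 0.34 (SE 0.15) and the phosphatase Pdp2 by −0.25 (SE 0.11). The 21 other glycolytic isoforms and regulators had a median of −0.02, or −0.01 without double knockout tumor 2, with 10 higher and 11 lower. In that list the liver pyruvate kinase Pklr differed by 0.51 (SE 0.22), or 0.33 without that tumor, Tigar by 0.22 (SE 0.10) and the transporter Slc2a12 by −0.23 (SE 0.12).

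**Figure D5:**
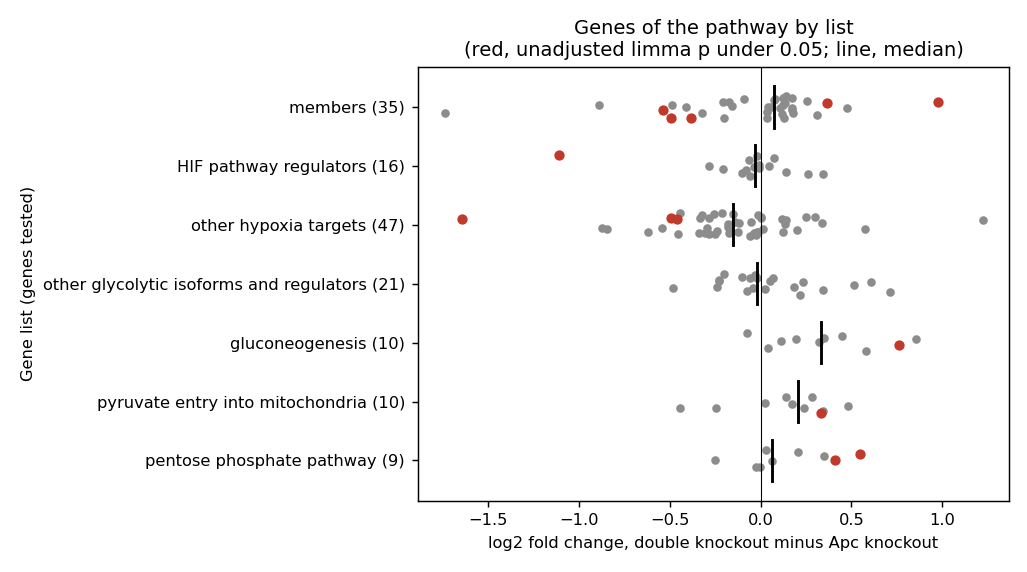
Log2 difference, double knockout minus Apc knockout, of every gene of the lists (1 point per gene, red at an unadjusted limma p under 0.05), with a line at the median of each list and the 35 genes described above at the top. The other hypoxia targets have a median of −0.15 and the gluconeogenesis genes of 0.33, which was 0.03 without double knockout tumor 2.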

How the data were processed

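Laser-dissected tumor RNA of 3 double knockout and 3 Apc knockout mouse colon tumors was hybridised to Affymetrix Mouse Gene 1.0 ST arrays. The authors summarised the arrays by RMA, and the deposited values are log2 signals, already normalized, with no detection calls. The number of arrays, 3 in each group, limits the precision. RMA equalises the arrays' distributions, so a shift common to most genes would not show. Probe sets were named from the platform annotation, and Ero1l was matched as Ero1a through RefSeq synonyms: of 35556, 21789 had 1 symbol, 1621 several and 12146 none. Those with a symbol and a mean signal at or above the 20th percentile (5.88), 19506 in all, were fitted with limma 3.58.1 in R 4.3.3, and p-values were adjusted by Benjamini-Hochberg over all of them, with 0.05 as the threshold. Folds are 2 to the power of the log2 difference. Each gene was read on the probe set of its own with the highest mean. The fit was tested on simulated data. All 38 genes, the 3 genes of smallest p in each pathway list and the deleted genes were named. The 38 genes and the lists were chosen with earlier results of these data known. The alternatives were other filters, normalizations and probe set choices, the methods' t-test, a replicate block and leaving out each tumor, and a second Hk1 probe set was added after seeing the data.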

Additional observations from a re-analysis of the deposited data

How the results depend on the processing

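Of the 35 genes, 24 kept the sign of their difference in every setting in which they were tested. Not every filter kept all 35. Leaving out 1 tumor at a time turned the sign in 11: Slc2a1 (−0.0260 to 0.19), Hk2 (−0.11 to 0.19), Pgam1 (−0.0078 to 0.26), Pdk1 (−0.0461 to 0.21), Pdk2 (−0.15 to 0.56), Slc16a3 (−0.84 to 0.0847), Egln1 (−0.0160 to 0.12), Egln3 (−0.0141 to 0.33), Bnip3 (−0.46 to 0.19), Ankrd37 (−0.24 to 0.0851) and Car9 (−0.19 to 0.26). Quantile normalization turned that of Hk2 (−0.0040). The cause was not tested. The number of genes with an adjusted p under 0.05 was 0 in every setting except the coefficient of variation filter, which gave 1, Ddit4. At an unadjusted p the number was 3 of the 20 genes kept with that filter, and 3 of 35 by the methods' t-test. It was between 3 and 7 with 1 tumor left out. A filter at the 40th percentile of the mean signal (7.15) left out Slc2a3, and the number was then 4. Shares of all probe sets at an unadjusted p are not given for these settings, so the shifts in number cannot be called particular to these genes. The median over the 35 genes ranged from −0.01 to 0.16 with 1 tumor left out. The list medians then ranged from −0.16 to −0.10 for other hypoxia targets, −0.07 to 0.0619 for other glycolytic isoforms, 0.0225 to 0.35 for pyruvate entry, 0.03 to 0.53 for gluconeogenesis, −0.06 to 0.01 for regulators of hypoxia-inducible factors and 0.02 to 0.16 for the pentose phosphate pathway. The median of other hypoxia targets was −0.12 (−0.1188) with the coefficient of variation filter and −0.12 (−0.1182) with median centring.

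With the replicate number as a block, 8 genes had an unadjusted p under 0.05 and 0 an adjusted one. The share of all probe sets under this fit is not given here, so the 8 cannot be called particular to these genes. Tumors of the same number did not deviate together (correlations −0.203, −0.065 and 0.092), so the numbers were not taken to pair the tumors. The low number of arrays limits what could be detected.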
